A study of Mus musculus with 14 samples.

Results

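The enzymes that oxidise or reduce aldehydes, ketones and sugar alcohols were examined in mouse intervertebral discs as 44 genes, of 55487 in the count table and 21936 that it lists as protein-coding. They were chosen by name and comprise the aldehyde dehydrogenases (Aldh), the aldo-keto reductases of families 1 and 7 (Akr), the carbonyl reductases Cbr1 to Cbr4, sorbitol dehydrogenase (Sord) and ketohexokinase (Khk). RNA was sequenced from caudal discs of 14 male mice, with 5 discs pooled per mouse, in 2 models of type 2 diabetes. The db/db mice (n = 3) lack a working leptin receptor (Lepr) and were compared with db/+ heterozygotes (n = 3), all 12 weeks old. The STZ-HFD mice (n = 4) were C57BL/6J given a high-fat diet, whose fat content the labels and the study's methods give differently, for 4 to 6 weeks, then a single dose of 100 mg/kg of the beta-cell toxin streptozocin, and the same diet for 12 more weeks. The Con+Veh mice (n = 4) were C57BL/6J on control diet with vehicle, and the labels call them wild type. The receptor defect of db/db mice is in every tissue, not in the disc alone. Because each cohort has its own controls, strain, age and diet cannot be told apart from the model when the cohorts are set side by side.

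Aldehydes arise from lipid peroxidation, amino acid and amine breakdown, ethanol and retinol, and they react with proteins and DNA. Aldehyde dehydrogenases oxidise them to acids, whereas aldo-keto and carbonyl reductases reduce them to alcohols. When glucose is high, aldose reductase (Akr1b3) turns some of it into sorbitol, Sord turns sorbitol into fructose, and Khk phosphorylates fructose. The disc is a poorly vascularised tissue of cartilage-like and fibrous cells.

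Total counts were 16076908 to 58943169 per library, of which 28.1% to 60.2% fell on ribosomal RNA genes. The STZ-HFD 1 library stood apart. It had the lowest total, yet 42626 genes had at least 1 count in it against 25194 to 29924 in the other 13 libraries. Chondrocyte markers, 11 to 12 of 12 detected in each library, and notochord markers, at least 9 of 11, were present in all groups. Markers of skeletal muscle, a tissue around the disc, were present as well. Their summed level did not overlap between db/+ and db/db, whereas the ranges of Con+Veh and STZ-HFD overlapped. The summed level of 15 skeletal muscle markers, all detected in every library, was 17513 to 40359 CPM (the count scaled to library size, with TMM factors) in Con+Veh and 21457 to 60196 in STZ-HFD. It was 17567 to 21577 in db/+ and 7876 to 15734 in db/db. In pooled tissue, fewer cells of a type and less RNA per cell cannot be told apart.

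Of the 44 genes, 32 passed the filter of more than 1 CPM in at least 3 libraries. For the filter alone, CPM was taken without the TMM factors. With these factors, as in the values printed here, Akr1c19 was above 1 in Con+Veh 2 (1.41) and STZ-HFD 1 (2.92) alone. A gene was called changed at an adjusted p under 0.05 (limma with Benjamini-Hochberg adjustment over 16915 genes) and a log2 fold change of at least 1 in size. By this rule, 1 enzyme gene of 32, Aldh1a1, was called higher in db/db, where the share of all genes called higher was 1.23%. None was called lower, against 0.432% of all genes. In STZ-HFD, 1 of 32 was again called higher, against 1.30% of all genes, and it was also Aldh1a1. None was called lower there, against 1.31%. The counts of calls were therefore near the background, and most of the family did not pass the test in either model. At an unadjusted p under 0.05, 5 were higher and 1 was lower in db/db, where 10.7% and 10.4% of all genes were, and 3 were higher and 5 lower in STZ-HFD, where 8.34% and 9.54% were. edgeR's quasi-likelihood test and voom without quality weights called none of the 32 in either model, and of these 2 comparisons DESeq2 called Aldh1a1 in db/db alone.

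**Figure D1:**
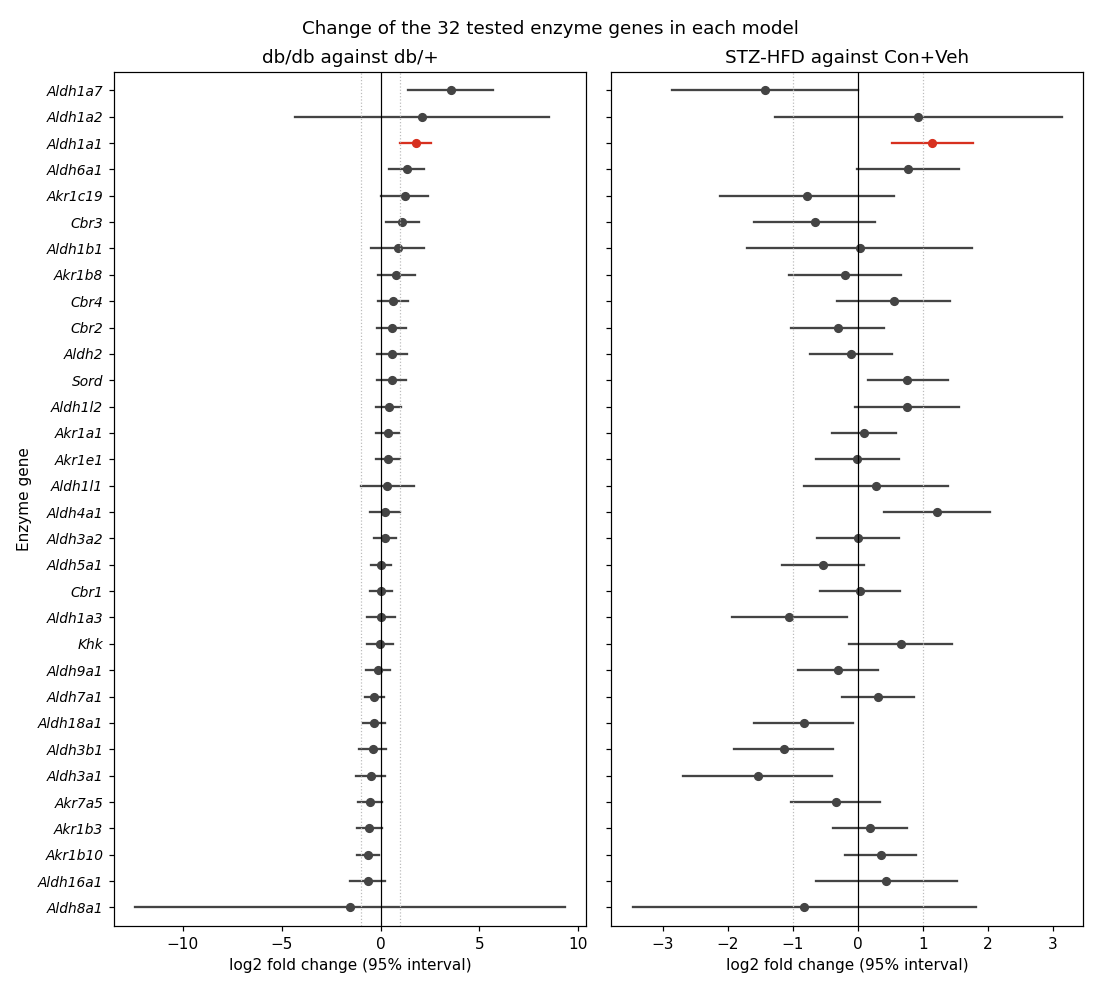
Log2 fold change (points) with 95% interval (lines) of the 32 tested enzyme genes in db/db against db/+ (left) and STZ-HFD against Con+Veh (right), ordered by the change in db/db. The horizontal axes differ in range, dotted lines mark a log2 fold change of 1 in either direction, and Aldh1a1, in red, is the gene called in both comparisons. Intervals of Aldh1a2 and Aldh8a1 are wide because their counts were near 0 in the db groups.

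Levels can be compared between the genes only per length, as RPKM, the count divided by exon length and by library size. On this scale Aldh2, the mitochondrial enzyme that clears acetaldehyde, and Akr1a1, an aldehyde reductase with broad substrates, were far above the rest. Their levels, averaged over the 4 group means, were 31.0 and 30.3 RPKM. Together they made up 40.9% to 59.5% of the summed level of all 44 genes in a library. Next came Aldh6a1, a mitochondrial enzyme of valine and thymine breakdown, at 6.43 RPKM, and Cbr2, a carbonyl reductase abundant in lung, at 4.68. Aldh9a1, which acts in carnitine synthesis, followed at 4.27, and Aldh1a1 at 3.37. Over the libraries Aldh2 ranged from 14.3 to 46.8 RPKM and Akr1a1 from 14.3 to 43.4, so these 2 did not differ beyond their spread. The ranges of the next 4 also overlapped, among them 2.43 to 8.76 for Cbr2, 1.71 to 6.51 for Aldh9a1 and 0.648 to 10.9 for Aldh1a1.

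**Figure D2:**
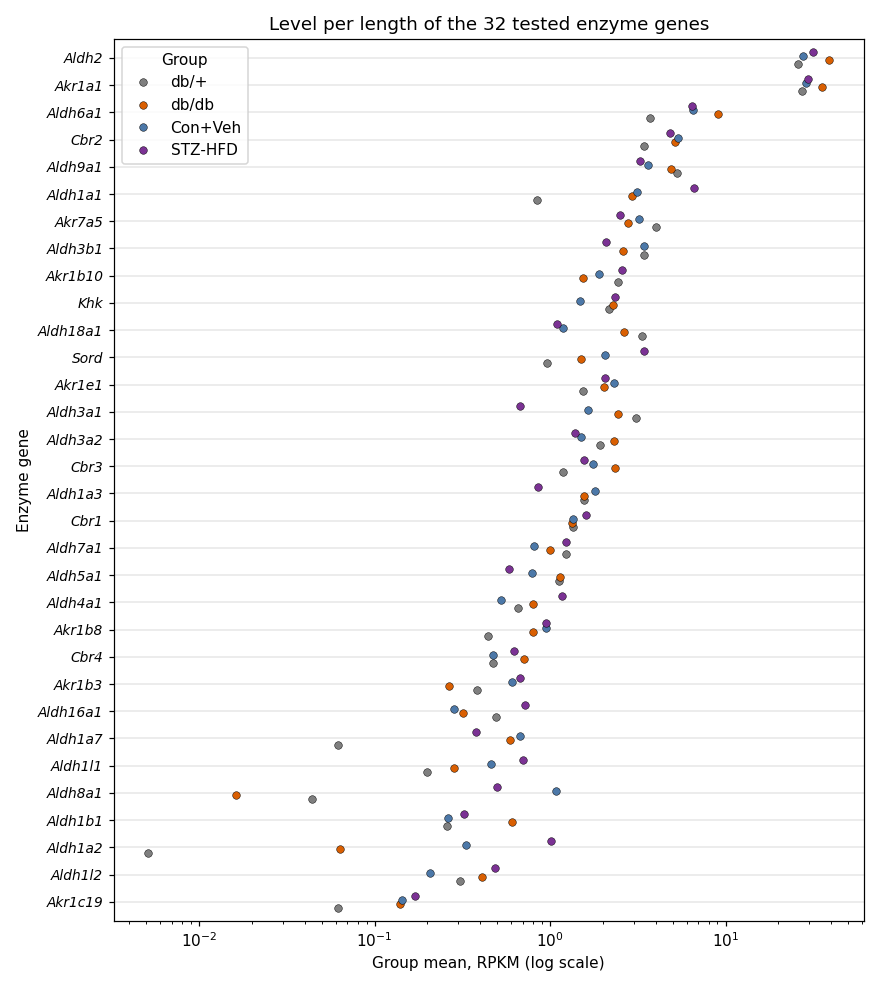
Mean level per length of the 32 tested enzyme genes in each group, in counts per kilobase of exon and library size (RPKM) on a log scale. Aldh2 and Akr1a1 lie above 25 in all 4 groups, and every other gene lies below 10, with Aldh1a1 at 0.840 in db/+ and 6.63 in STZ-HFD.

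The retinaldehyde group, 5 genes, held all the calls. Aldh1a1, Aldh1a2 and Aldh1a3 oxidise retinaldehyde to retinoic acid, the ligand of the retinoic acid receptors. Aldh1a7 was placed with them as the mouse paralogue of Aldh1a1, and Aldh8a1 was listed in the group too. Whether Aldh1a7 and Aldh8a1 act on retinaldehyde was not tested. Aldh1a1 and Aldh1a7 lie beside each other on chromosome 19, on opposite strands (GRCm38, Aldh1a1 at chr19:20492715-20643465 on plus, Aldh1a7 at chr19:20692953-20727562 on minus). Their coding sequences share 1377 of 1503 bases (91.6%). The promoters listed by RefSeq (GRCm38.p6), which cover 250 bases before and 50 after a start, are printed because these neighbours share much of theirs, while Aldh1a7 is the gene whose response differed between the models. Capitals mark the longest run of identical bases, 65 long, from 94 to 30 bases before the start in each. The Aldh1a1 promoter is the one at Aldh1a1-201, not its only coding transcript (chr19:20601718-20602017, plus strand), and that of Aldh1a7 is chr19:20727507-20727806 on the minus strand. The coding transcript Aldh1a1-206 starts upstream, at chr19:20492715. Which Aldh1a1 start was in use in these discs was not tested.
Aldh1a1: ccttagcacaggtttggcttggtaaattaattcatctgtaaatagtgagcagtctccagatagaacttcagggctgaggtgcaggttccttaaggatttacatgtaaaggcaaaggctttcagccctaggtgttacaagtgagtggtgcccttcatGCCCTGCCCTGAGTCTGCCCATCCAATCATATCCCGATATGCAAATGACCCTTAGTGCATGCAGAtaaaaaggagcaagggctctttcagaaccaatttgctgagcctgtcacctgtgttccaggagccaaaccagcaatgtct
Aldh1a7: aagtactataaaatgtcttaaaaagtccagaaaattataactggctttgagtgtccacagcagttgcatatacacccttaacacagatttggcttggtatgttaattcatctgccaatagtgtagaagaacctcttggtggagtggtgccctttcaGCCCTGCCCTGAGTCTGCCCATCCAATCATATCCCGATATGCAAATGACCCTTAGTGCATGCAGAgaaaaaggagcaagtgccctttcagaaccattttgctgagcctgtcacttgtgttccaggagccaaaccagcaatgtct
Over the last 150 bases, 142 were identical (94.7%). A further Aldh1a1 promoter in the table lies upstream and shares no run longer than 8 bases with that of Aldh1a7. The longest run shared by the coding sequences is 100 bases, positions 757 to 856 of the Aldh1a1 coding sequence. It is printed because a read wholly within it, taken without its mate, matches both genes.
Aldh1a1 and Aldh1a7: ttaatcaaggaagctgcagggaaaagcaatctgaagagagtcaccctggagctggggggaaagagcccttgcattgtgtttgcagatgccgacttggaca
Of all the 50-base words in the exons of Aldh1a7, 7.49% also occur in Aldh1a1, and 3.06% of those of Aldh1a1 occur in Aldh1a7. A small part of either count could therefore belong to the other or be lost. How the authors counted such reads is not given in the sources used here.

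Aldh1a1 was higher in both models. Its counts were 156, 306 and 252 in db/+ and 1145, 973 and 718 in db/db, or 3.20 to 5.32 CPM against 11.3 to 18.0. Every db/db library lay above every db/+ library. The log2 fold change was 1.77 (SE 0.37, limma adjusted p = 0.0291), which is 3.40-fold. In Con+Veh its levels were 6.93, 16.4, 14.3 and 23.8 CPM, and in STZ-HFD 22.1, 20.7, 53.7 and 34.3. Here the groups overlapped, since Con+Veh 4 was above STZ-HFD 1 and 2. The log2 fold change was 1.14 (SE 0.30, limma adjusted p = 0.0421), which is 2.21-fold. The responses of the models differed by 0.62 (SE 0.48, 95% interval -0.39 to 1.63, limma adjusted p = 0.550), so no difference in size was detected. In the estimated transcript counts, Aldh1a1-201 and the longer Aldh1a1-206 held the most, 0 to 229 and 10.1 to 244 per library.

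Aldh1a1 was called under more settings in db/db than in STZ-HFD. Over the other analysis settings, its log2 fold change stayed between 1.53 and 2.25 in db/db and was called in 10 of 14, and in STZ-HFD it was 0.55 to 1.24 and called in 2 of 14. Leaving out any of the 6 db libraries ended the call in db/db (1.60 to 1.98 over all 14 omissions, limma adjusted p 0.0166 to 0.0968). In STZ-HFD the call held in 7 of 14 omissions (0.76 to 1.40, limma adjusted p 0.0268 to 0.482). It ended without Con+Veh 2, 3 or 4, STZ-HFD 3 or 4, db/+ 3 or db/db 2, and the lowest value was without STZ-HFD 3. Adipocyte markers, all 12 detected in every library, differed as well. Of the 12, 4 were called higher in db/db and 1 in STZ-HFD, against 1.23% and 1.30% of all genes. Their sums were 1086 to 4256 CPM in db/+, 1417 to 1650 in db/db, 2629 to 4990 in Con+Veh and 4564 to 8380 in STZ-HFD. The db/db sums lay within the db/+ range, although 10 of 12 markers had a log2 fold change above 0. The list shares the gene Car3 with the notochord list, so the sums do not measure adipocytes alone. With the adipocyte marker level as a covariate, Aldh1a1 was 1.53 in db/db (limma adjusted p = 0.445) and 0.98 in STZ-HFD (limma adjusted p = 0.622), and no gene at all was called in db/db. With the muscle marker level it was 2.25 in db/db (limma adjusted p = 0.0220) and 0.55 in STZ-HFD (limma adjusted p = 0.530).

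Aldh1a7 went with Aldh1a1 in db/db and not in STZ-HFD. It had few counts, 7, 13 and 1 in db/+ and 86, 118 and 40 in db/db, or 0.0155 to 0.226 CPM against 0.628 to 1.69. These groups did not overlap, and the log2 fold change was 3.54 (SE 1.02, limma adjusted p = 0.0732), short of the threshold. Con+Veh had 52, 36, 47 and 22 counts and STZ-HFD 40, 6, 15 and 27, or 0.748 to 2.21 CPM against 0.206 to 1.64, a log2 fold change of -1.43 (SE 0.68, limma adjusted p = 0.279). The test of the difference itself gave 4.97 (SE 1.22, 95% interval 2.39 to 7.55, limma adjusted p = 0.0470), the only such call among the 32 genes, where the share of all genes called in either direction was 1.77%. The value was 3.99 to 5.83 over all omissions of 1 library, and the call held in 3 of these 14 and in 6 of 13 other settings. For every 100 Aldh1a1 counts there were 0.397 to 4.49 Aldh1a7 counts in db/+ and 5.57 to 12.1 in db/db. In the other cohort these were 4.56 to 20.4 in Con+Veh and 0.867 to 7.45 in STZ-HFD, with the highest STZ-HFD value in STZ-HFD 1.

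**Figure D3:**
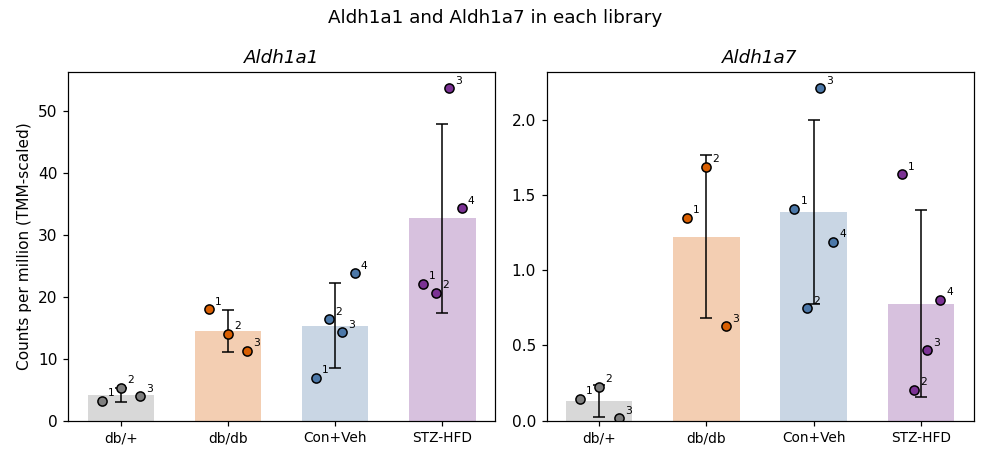
Level of Aldh1a1 (left) and Aldh1a7 (right) in each library, in CPM on axes that start at 0. Points are mice, numbered by replicate, bars are group means and error bars are the SD (n = 3 or 4). Both genes are low in db/+, and in STZ-HFD Aldh1a1 reaches 53.7 while 3 of 4 Aldh1a7 values lie at or below 0.803.

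The other 3 genes of this group did not pass the test. Aldh1a3, a retinaldehyde dehydrogenase of epithelia, was at 1.93 to 7.29 CPM in STZ-HFD against 3.95 to 14.6 in Con+Veh (log2 fold change -1.05, SE 0.42, limma adjusted p = 0.186). In db/db its value was near 0 change, with 5.37 to 9.65 CPM against 5.53 to 8.66. Aldh1a2, the main enzyme of retinoic acid synthesis in the embryo, had at most 2 counts in a db/+ library and 20 in a db/db library. In STZ-HFD its counts were 141, 4, 60 and 46, and in Con+Veh 0, 4, 53 and 8. Aldh8a1 had 0 to 27 counts in the db groups, and 0, 16, 281 and 100 in Con+Veh against 44, 13, 123 and 89 in STZ-HFD. For Aldh1a2, STZ-HFD 1 and Con+Veh 3 held more counts than the other 3 libraries of their group together.

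In the polyol pathway, none of the 3 genes was called in either model. Akr1b3 was at 2.52, 3.98 and 3.16 CPM in db/+ and 2.80, 2.08 and 1.78 in db/db (log2 fold change -0.57, SE 0.30, limma adjusted p = 0.279). It was at 3.99 to 6.87 CPM in Con+Veh and 4.37 to 7.74 in STZ-HFD (0.19, SE 0.27, 95% interval -0.38 to 0.76, limma adjusted p = 0.770). Both pairs of groups overlapped. With estimated transcript counts in place of gene counts, Akr1b3 turned to 0.97 in db/db and was 0.88 in STZ-HFD, again not called, so its direction in db/db depends on the counting. Sord was at 4.10, 4.34, 5.26 and 5.54 CPM in Con+Veh and 5.47, 7.15, 11.9 and 7.70 in STZ-HFD, where only STZ-HFD 1 fell within the control range. Its log2 fold change was 0.76 (SE 0.29, limma adjusted p = 0.168), and with the muscle marker level as a covariate it was -0.20. In db/db Sord was at 0.57 (SE 0.35, limma adjusted p = 0.360). Khk was at 2.49 to 2.93 CPM in Con+Veh and 3.70 to 4.85 in STZ-HFD, the only enzyme gene whose STZ-HFD libraries all lay above those of Con+Veh, where 1.97% of all genes did so. None lay wholly below, against 2.77% of all genes. Its log2 fold change was 0.66 (SE 0.38, limma adjusted p = 0.384), and in db/db it was -0.02 (SE 0.31, 95% interval -0.68 to 0.65). Most estimated transcript reads of Khk, 15 to 123 per library, were on Khk-202, a transcript with a retained intron, and the coding isoforms held too few to be compared. Of the 50-base words of Sord, 31.3% also occur in the gene Gm6652, and 13.6% of those of Akr1b3 occur in other listed genes. Their counts could therefore be split or reduced by the authors' counting.

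**Figure D4:**
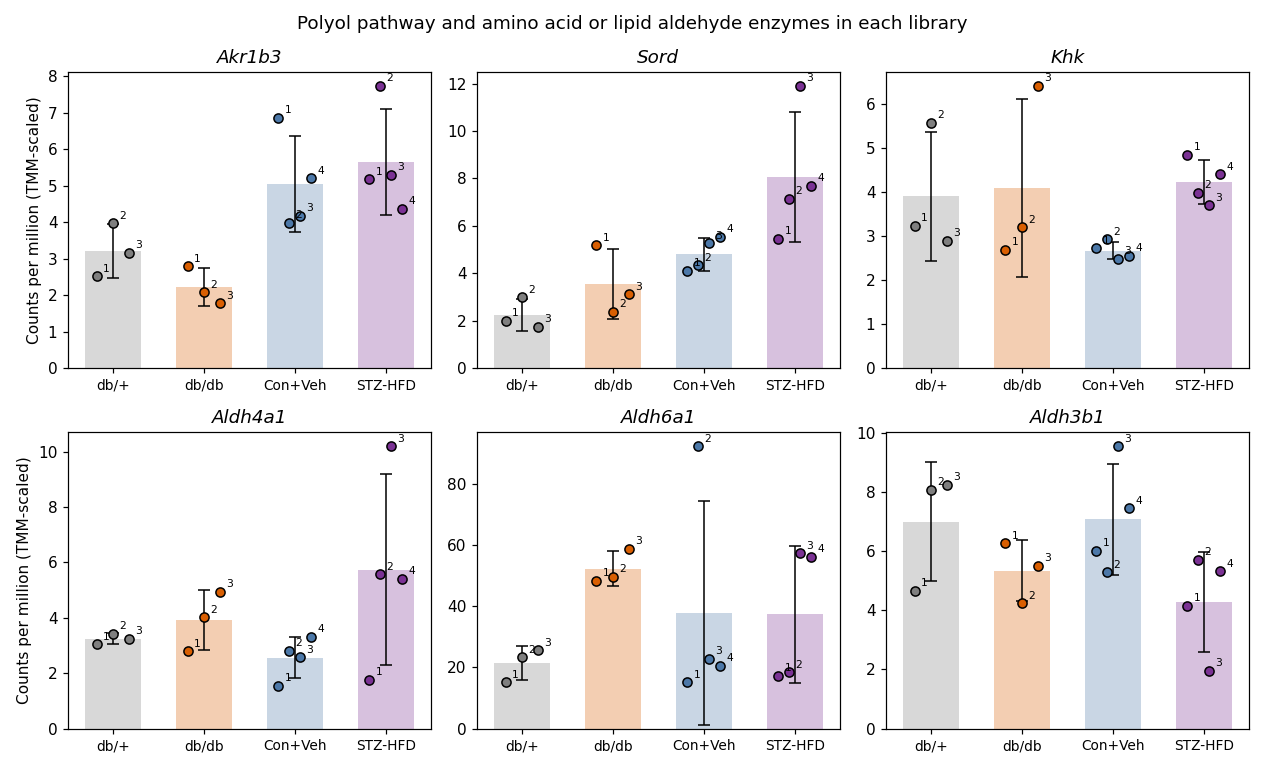
Levels of Akr1b3, Sord, Khk, Aldh4a1, Aldh6a1 and Aldh3b1 in each library, in CPM on axes that start at 0. Points are mice, numbered by replicate, bars are group means and error bars are the SD (n = 3 or 4). Khk is the gene whose STZ-HFD points all lie above Con+Veh, and Aldh6a1 shows 1 Con+Veh library at 92.4 against 15.1 to 22.9 in the others.

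Among the 5 enzymes of amino acid breakdown and synthesis, Aldh6a1 and Aldh4a1 had the largest differences. Aldh6a1 was at 15.1, 23.3 and 25.6 CPM in db/+ and 48.3, 49.6 and 58.8 in db/db, with no overlap. Its log2 fold change was 1.32 (SE 0.42, limma adjusted p = 0.0992), and it passed the threshold in 4 other settings, among them each model fitted alone (1.34, limma adjusted p = 0.0213). Of its 50-base words, 16.1% lie in the overlapping gene Bbof1. In STZ-HFD, Aldh6a1 was at 17.3 and 18.4 CPM in replicates 1 and 2 and at 57.4 and 56.2 in replicates 3 and 4, and Con+Veh 2 was at 92.4 (log2 fold change 0.77, SE 0.37, limma adjusted p = 0.289). This value rests on the quality weights, since it was 0.15 in voom without them, -0.02 in edgeR and 0.00 in DESeq2. Aldh4a1, which breaks down proline, was at 1.55, 2.80, 2.58 and 3.31 CPM in Con+Veh and 1.77, 5.57, 10.2 and 5.41 in STZ-HFD. The groups overlapped through STZ-HFD 1 alone. Its log2 fold change was 1.22 (SE 0.38, limma adjusted p = 0.0910), and it was called without STZ-HFD 1 (1.43, limma adjusted p = 0.0288) and in no other setting or omission. Without STZ-HFD 3 it was 0.77 (limma adjusted p = 0.575). In db/db it was at 0.24 (SE 0.35). Of its 50-base words, 30% also occur in Gm21969. Aldh18a1, which makes proline and so runs the other way, was at -0.83 in STZ-HFD (SE 0.36, limma adjusted p = 0.233), with 9.66 CPM in STZ-HFD 1 against 2.11 to 3.34 in the other 3. Aldh5a1, of GABA breakdown, and Aldh7a1, of lysine breakdown, had log2 fold changes between -0.54 and 0.31 in both models and were not called.

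Of the 3 tested enzymes that clear fatty and lipid-peroxidation aldehydes, Aldh3a1 and Aldh3b1 had log2 fold changes below 0 in both models, and none was called. Aldh3a1 was at 2.01, 1.52, 4.46 and 4.73 CPM in Con+Veh and 1.07, 1.62, 1.58 and 0.951 in STZ-HFD (log2 fold change -1.54, SE 0.54, limma adjusted p = 0.130). Only Con+Veh 2 lay within the STZ-HFD range. Aldh3b1 was at 5.28 to 9.54 CPM against 1.96 to 5.71 (-1.14, SE 0.36, limma adjusted p = 0.0932), with STZ-HFD 2 and 4 above Con+Veh 2. In db/db these were at -0.50 (SE 0.34) and -0.39 (SE 0.32). Aldh3a2, the fatty aldehyde dehydrogenase of the endoplasmic reticulum, was at 0.22 (SE 0.27) in db/db and 0.00 (SE 0.30, 95% interval -0.63 to 0.63) in STZ-HFD. Aldh3a1 in STZ-HFD was at -0.93 in voom without quality weights, and Aldh3a2 there at 1.03 with transcript counts. In STZ-HFD the summed level of the chondrocyte markers was lower as well, 992 to 2075 CPM against 3642 to 16438 in Con+Veh. Of 11 tested, 6 were called lower, against 1.31% of all genes. The part of the chondrocyte marker level in the values of Aldh3a1 and Aldh3b1 was not tested.

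The abundant general enzymes were not called. Aldh2 was at 157, 123 and 118 CPM in db/+ and 224, 149 and 228 in db/db (log2 fold change 0.57, SE 0.37, limma adjusted p = 0.385). It was at 77.7 to 204 CPM in Con+Veh and 73.2 to 240.0 in STZ-HFD (-0.11, SE 0.30, limma adjusted p = 0.889). In each model the groups overlapped. Akr1a1 was at 0.37 (SE 0.28) in db/db and 0.10 (SE 0.23, 95% interval -0.39 to 0.58) in STZ-HFD, and Aldh9a1 at -0.14 (SE 0.29) and -0.31 (SE 0.29). Transcript counts gave other values for these genes, none of them called. On those counts Aldh2 was at -0.76 in db/db and 2.14 in STZ-HFD, both turned in sign, and Akr1a1 was at 1.53 in db/db and above the interval given in STZ-HFD. Aldh9a1 also turned in sign, to 0.23 and 0.44 in the same order. The folate enzymes Aldh1l1 and Aldh1l2, which oxidise formyl tetrahydrofolate, had log2 fold changes above 0 in both models, 0.28 to 0.75, and were not called.

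The 4 carbonyl reductases reduce quinones, prostaglandins and other ketones. In db/db their log2 fold changes ran from 0.01 for Cbr1 to 1.10 for Cbr3. Cbr3 was at 2.46, 1.10 and 0.933 CPM in db/+ and 3.62, 2.25 and 2.89 in db/db (SE 0.39, limma adjusted p = 0.128), and the groups overlapped through db/+ 1. In STZ-HFD Cbr3 was at 1.01 to 2.80 CPM against 1.47 to 3.04 in Con+Veh (-0.66, SE 0.44), and in voom without quality weights it was at -0.06. The difference between the models was 1.76 (SE 0.59, limma adjusted p = 0.129). Cbr2 was at 0.57 (SE 0.35) in db/db and -0.31 (SE 0.34) in STZ-HFD, and Cbr1 at 0.01 (SE 0.27) and 0.04 (SE 0.29). Of the smaller aldehyde reductases, Akr1b10 was at 6.49 to 10.2 CPM in db/+ and 4.01 to 7.35 in db/db (-0.64, SE 0.26, limma adjusted p = 0.180). The 6 tested genes not yet given, Akr1b8, Akr1e1, Akr7a5, Aldh16a1, Aldh1b1 and Cbr4, had log2 fold changes from -0.66 to 0.86 in db/db and -0.34 to 0.55 in STZ-HFD, and none was called.

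The Akr1c genes, a cluster of hydroxysteroid and prostaglandin reductases on chromosome 13, were near the floor, with 1 of 8 tested. That gene, Akr1c19, was at 0.451, 0.226 and 0.420 CPM in db/+ and 0.991, 0.833 and 0.628 in db/db (log2 fold change 1.22, SE 0.56, limma adjusted p = 0.223). In STZ-HFD it was at 2.92 CPM in replicate 1 and at 0.206 to 0.476 in the others. The 12 genes that did not pass the filter were Akr1b7, Akr1c6, Akr1c12, Akr1c13, Akr1c14, Akr1c18, Akr1c20, Akr1c21, Akr1cl, Akr1d1, Aldh3b2 and Aldh3b3. For 11 of the 12 the highest count was in STZ-HFD 1, and for Akr1c13 it was 18, in db/db 1. Akr1c14 had 113 counts in STZ-HFD 1 and at most 10 in any other library, and Akr1cl had 78 against at most 6. Akr1c20 had 34 counts there and 0 in the other 13 libraries, and Akr1c6 had 30 against at most 1. The remaining 8 had highest counts of 18 to 51, in Akr1c13 (18), Akr1c21 (18), Akr1c12 (19), Akr1b7 (23), Akr1d1 (35), Aldh3b3 (48), Aldh3b2 (49) and Akr1c18 (51). These counts came with the excess of detected genes in that library, and the cause was not tested. Akr1c12 and Akr1c13 are 96.2% identical in coding sequence and Aldh3b2 and Aldh3b3 90%, so counts within these pairs are uncertain.

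**Figure D5:**
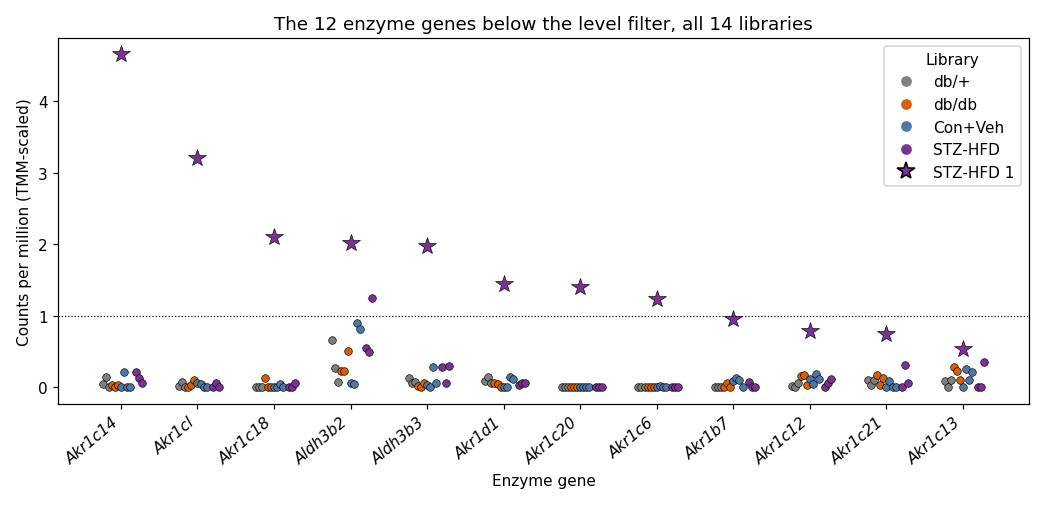
Level of the 12 enzyme genes below the filter in all 14 libraries, in CPM, with STZ-HFD 1 as a star and the dotted line at 1. The values and the line are on the scale with TMM factors, whereas the filter used CPM without them. STZ-HFD 1 is the highest point for every gene on this scale, up to 4.65 for Akr1c14.

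As a group, the 32 tested genes had a median log2 fold change of 0.29 in db/db and 0.01 in STZ-HFD, beside -0.04 and -0.04 over all 16915 genes. In db/db 20 of 32 had a value above 0, where 47.3% of all genes did, and in STZ-HFD 17 of 32, where 47.2% did. The libraries did not overlap in 7 genes that were higher in db/db (14.1% of all genes) and in 1 that was lower (11.7% of all genes). The 7 were Aldh1a1, Aldh1a7, Aldh6a1, Akr1c19, Akr1b8, Cbr4 and Aldh1l2, and the lower gene was Akr7a5. With the adipocyte marker level as a covariate, the median was 0.07 in db/db and -0.20 in STZ-HFD, beside -0.08 and -0.06 over all genes.

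Genes that hand aldehydes to these enzymes, or share their pathways, were followed in 6 lists. Of all genes, 1.23% were called higher and 0.432% lower in db/db, and 1.30% and 1.31% in STZ-HFD. Of 13 alcohol and retinol dehydrogenases tested, none was called in either model. Of 10 tested genes of retinoid binding and response, Cyp26b1, which degrades retinoic acid, was called higher in db/db, at 58.4, 79.8 and 130 CPM against 31.2, 25.4 and 46.0 in db/+ (log2 fold change 1.39, SE 0.27, limma adjusted p = 0.0228), and none was called in STZ-HFD. Of 7 molybdenum hydroxylases and amine oxidases, which produce or oxidise aldehydes, Aoc3 (1.36, SE 0.29, limma adjusted p = 0.0291) and Maob (1.74, SE 0.40, limma adjusted p = 0.0346) were called higher in db/db and none in STZ-HFD. Of 15 NRF2 targets and regulators, Prdx1, a peroxidase, was called higher in db/db (2.18, SE 0.47, limma adjusted p = 0.0304), and none in STZ-HFD. There Gstm1 was at -0.90 (SE 0.23, limma adjusted p = 0.0361), short of the size limit alone. Of 12 genes of fructose and pentose handling, Tigar, a fructose bisphosphatase, was called higher in STZ-HFD (1.20, SE 0.29, limma adjusted p = 0.0296), and none in db/db. None of 9 tested genes listed under dicarbonyl and fructosamine clearance was called in either model, and not all of them are established in that role.

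Several of these enzymes are known targets of the factor NRF2, which binds the antioxidant response element. The letters TGACNNNGC on either strand were found in 4 of the 38 promoters listed for 36 of the 44 genes (10.5%), those of Akr1c19, Akr1cl, Aldh1a2 and Aldh9a1, and in 12.4% of all 32817 listed promoters. They do not occur in the printed promoters of Aldh1a1 and Aldh1a7.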

How the data were processed

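The authors aligned reads with STAR 2.7.9a1 to GRCm38 (Ensembl 101) and deposited whole-number gene counts from featureCounts 2.0.32, without normalization, and estimated counts per transcript from Salmon 1.5.23 (versions as the submitters' processing notes print them). Strand use in counting is not given in the sources used here. Of 55774 lines, 287 repeats were dropped, leaving 55487 genes. Positions and lengths came from GENCODE M21, on the same build. Groups came from the sample labels. Each library was taken as a separate mouse.

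Genes above 1 CPM, taken without TMM factors, in at least 3 of 14 libraries were kept. The 16915 kept genes were tested with limma 3.58.1 (voomWithQualityWeights, TMM factors from edgeR 4.0.16, R 4.3.3). The fit had a mean per group and Benjamini-Hochberg adjustment within each contrast. Voom is the test named in the study's methods and took the place of edgeR's quasi-likelihood test. The latter and DESeq2 1.42.0 were run as alternatives. Quality weights ran from 0.275 (Con+Veh 1) to 3.05 (Con+Veh 3), and STZ-HFD 1 had 0.379. Estimated transcript counts were summed per gene and rounded for 1 alternative. Depth sets what 3 counts can show, 0.0509 to 0.187 CPM, and this covers counting error only. Low counts were mostly even numbers (59.3% to 83.1% of counts from 1 to 10), and whether mates were counted separately is not given in the sources used here.

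The members, gene lists and tests were chosen with earlier results of these data known. Genes named with values were those called in any contrast, those with an unadjusted p under 0.05 and a log2 fold change of at least 1 in size, those that anchor a role, the 5 highest per length, and up to 3 called genes of each related list. Some further genes were named after their values were seen (Akr1b8, Akr1b10, Akr1e1, Akr7a5, Aldh16a1, Aldh1b1, Aldh1l1, Aldh1l2, Aldh5a1, Aldh7a1, Aldh8a1, Aldh18a1, Cbr4, and Gstm1 of a related list). Of 12 marker lists, those whose levels bear on a result are given beside it. Keratinocyte markers summed to at most 138 CPM in a library.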

Additional observations from a re-analysis of the deposited data

Results flagged for a closer look

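Within the groups of 4, each of the 44 genes was checked by Dixon's test for a library far from the other 3, 88 checks in all. Its chance rate of about 1 in 20 is for normally distributed values. That rate does not hold for genes near 0, where 1 reading against 3 libraries at 0 is picked out whatever its size. The check picked out 18, and 13 of them were the STZ-HFD 1 library. Its values there were 4.65 CPM for Akr1c14, 3.21 for Akr1cl, 2.92 for Akr1c19, 2.10 for Akr1c18, 1.97 for Aldh3b3, 1.44 for Akr1d1, 1.40 for Akr1c20, 1.23 for Akr1c6, 0.946 for Akr1b7 and 0.781 for Akr1c12. The same library was highest for Aldh18a1 (9.66 CPM), Aldh7a1 (8.22 CPM) and Aldh1l2 (7.19 CPM). This is also the library with the most genes detected, 42626, at the lowest total count. Con+Veh 2 was at 92.4 CPM for Aldh6a1, where the other 3 Con+Veh libraries were at 15.1, 20.6 and 22.9. The remaining 4 were single low readings against 3 libraries at 0, Akr1c14 (0.208 CPM), Akr1c21 (0.0831 CPM) and Akr1c6 (0.0208 CPM) in Con+Veh 2 and Akr1c18 (0.0470 CPM) in Con+Veh 3. Aldh1a7 was picked out because its response differed between the models by 4.97 on the log2 scale (limma adjusted p = 0.0470).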

How the results depend on the processing

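Counts of calls among the 32 genes turned on the method. Aldh1a1, the 1 gene called higher in db/db, was not called with edgeR's quasi-likelihood test, voom without quality weights, transcript counts or the adipocyte covariate (0 genes each). The count was 2 without a filter, with each model fitted alone, with the muscle covariate and without the 2 libraries whose names end in RIP (Con+Veh 2 and STZ-HFD 4), and 0 to 2 with 1 library left out. In STZ-HFD the count of 1 higher became 0 under edgeR, DESeq2, voom without weights, filterByExpr, no filter, each model alone, transcript counts, removal of ribosomal RNA genes, either covariate and omission of the RIP libraries, and was 0 to 2 with 1 library left out. The count of 1 gene differing between models became 0 under edgeR, voom without weights, transcript counts, GC correction, the muscle covariate and omission of the RIP libraries, and was 0 to 1 with 1 library left out. The count of genes called lower stayed at 0 in STZ-HFD under every alternative run, and in db/db under all but the block. No called value changed sign. Of 1062 values of named genes under alternatives, 89 had another sign than first reported, all uncalled. The causes were not tested.

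Same-numbered mice did not deviate together (correlations 0.189, -0.277 and -0.179 in the db cohort, and -0.257 to -0.0499 in the other), so the numbers give no pairing. With a replicate block, 4 genes were called higher (Aldh1a1, Aldh1a7, Aldh6a1 and Aldh1b1) and 1 lower (Aldh16a1) in db/db, 0 higher in STZ-HFD, and 0 differed between models. Over all genes, the block gave 796 higher and 688 lower in db/db, against 208 and 73 without it, and 2 and 4 in STZ-HFD, against 220 and 221. Over all genes, edgeR gave 1 and 0 in db/db and 10 and 29 in STZ-HFD, and voom without weights gave 7 and 2, and 3 and 16.

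Counts were low in most libraries for Aldh1a7, Aldh1a2, Aldh8a1 and Akr1c19, and the SE of their log2 fold changes was 0.56 to 5.15, so small changes of these genes could not be detected with 3 or 4 mice per group.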
